A study of Arabidopsis thaliana with 56 samples.

Results

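The genes of fatty acid and seed oil synthesis were 40 genes of plastid pyruvate supply, fatty acid synthesis, desaturation, elongation and triacylglycerol assembly, of 32678 genes in the count tables of Arabidopsis thaliana endosperm. They were listed by their role in the pathway, with earlier results of these data known. Counts of called genes among them are therefore a description. The 20 libraries were made from RNA of nuclei of seeds, sorted by flow cytometry at 6C, the DNA content of a triploid endosperm nucleus after DNA replication. Seeds of 1 to 5 siliques, the seed pods, went into a library. The groups were crwn1/2 at 6 days after pollination (DAP, 3 libraries), 7 DAP (5) and 8 DAP (4), and wild type (WT) at 6 DAP (4) and 7 DAP (4). CRWN proteins are components of the nuclear lamina, and the labels name the mutant only as crwn1/2, with no alleles, and give no other treatment. The series has no WT library at 8 DAP. No label says that libraries of a group came from separate plants, so p-values measure the spread between libraries, which may be in part technical.

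Oil in an Arabidopsis seed starts from sugars. In the plastid, pyruvate kinase makes pyruvate, pyruvate dehydrogenase turns it into acetyl-CoA, and acetyl-CoA carboxylase makes malonyl-CoA, the unit by which fatty acid synthase lengthens a chain held on acyl carrier protein. Thioesterases release the fatty acids, which leave the plastid, are desaturated and elongated at the endoplasmic reticulum and are joined to glycerol as triacylglycerol. The transcription factor WRI1 switches on many of the plastid genes, and LEC1, L1L, LEC2, FUS3, ABI3 and BZIP67 act in the seed maturation programme around it. Most Arabidopsis seed oil lies in the embryo, while the endosperm makes oil as well.

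Values are CPM, read counts brought to a common library size after scaling by the trimmed mean of M-values (TMM), and are compared within a gene only. A call means an adjusted p under 0.05 in edgeR's quasi-likelihood test over all 24696 features that passed a filter on low counts, all 40 genes among them. Read totals in features ran from 6986418 to 14359413 per library. CRWN1 transcripts were present in every library, at 43.7 to 113 CPM in crwn1/2 libraries and 74.4 to 151 CPM in WT libraries. CRWN2 stood at 11.3 to 36.8 CPM in crwn1/2 libraries and 34.7 to 89.8 CPM in WT libraries, and was called lower in crwn1/2 at 6 DAP (log2 difference -1.26, adjusted p = 0.00392 by edgeR). At 7 DAP CRWN2 was not called between the genotypes (-0.61, adjusted p = 0.0618 by edgeR). CRWN1 was not called between the genotypes at 6 or 7 DAP. The endosperm regulator ZOU was detected in every library, at 65.7 to 253 CPM, as were the seed coat genes BAN and TT10.

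The oil genes were lower in crwn1/2 than in WT at 6 DAP, and by 7 DAP most were not called between the genotypes. At 6 DAP edgeR called 27 of the 40 lower in crwn1/2 and 0 higher, where 12.6% of all features were called, 6.26% lower and 6.37% higher. The median log2 difference of the 40 genes at 6 DAP was -0.53, against -0.01 over all features, and 36 of the 40 were negative. At 7 DAP, 4 of the 40 were called lower and 1 higher, where 24.4% of all features were called, 13.5% lower and 10.9% higher, and the median was -0.07 against 0.02 over all features. The 7 DAP directions depended on scaling, with 26 of 40 negative under TMM and 20 of 40 with no scaling beyond the library total. A smaller share of endosperm nuclei in a sort and less RNA of these genes per endosperm nucleus, relative to other RNA, cannot be told apart in these libraries.

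Summed over the 40 genes, the crwn1/2 libraries at 6 DAP held 7513 to 9698 CPM, against 12952 to 13707 CPM in the WT libraries at 6 DAP. At 7 DAP the sums were 12065 to 15272 CPM in crwn1/2 libraries, against 13571 to 15426 CPM in WT libraries. At 8 DAP the crwn1/2 libraries held 11199 to 16370 CPM. The 6 DAP groups did not overlap, while the 7 DAP groups did. Relative to the WT 6 DAP mean, the median member stood at -0.43, -0.88 and -0.43 on the log2 scale in crwn1/2 6 DAP libraries 1, 2 and 3. Library 2 of crwn1/2 at 6 DAP was the lowest of its group for 29 of the 40 genes. Library 2 of crwn1/2 at 8 DAP was the highest of its group for 34 of the 40, and library 3 of crwn1/2 at 7 DAP for 30.

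**Figure D1:**
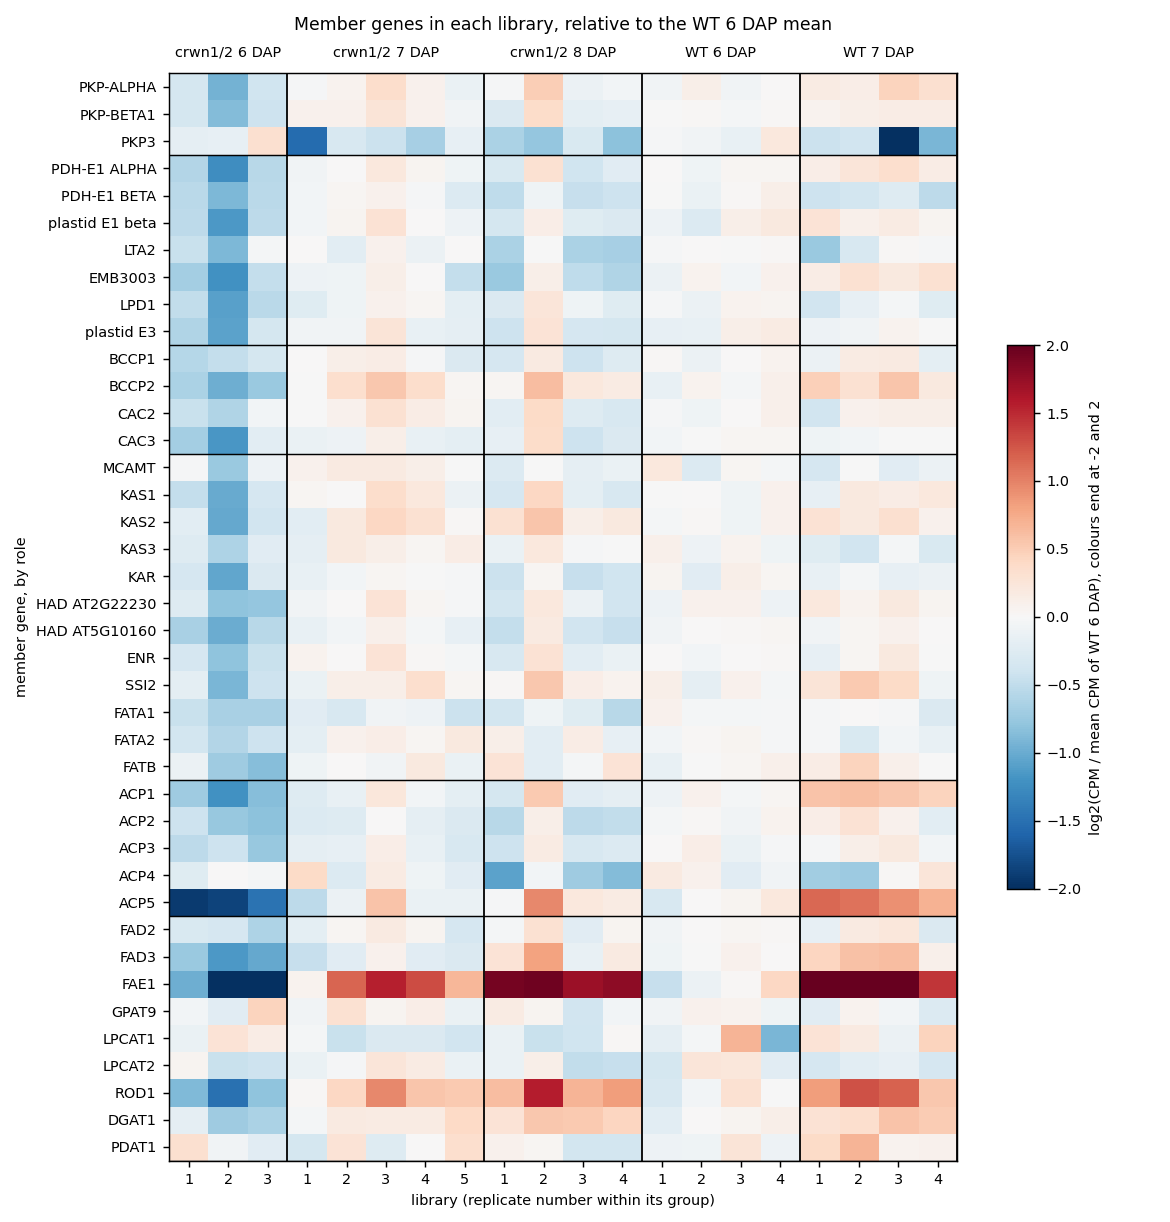
Each row is a gene of the list and each column a library; colour is log2 of CPM over the mean CPM of WT at 6 DAP, so blue is below that mean and red above it. The 3 crwn1/2 libraries at 6 DAP are blue in most rows, most deeply in library 2, and library 2 of crwn1/2 at 8 DAP is redder than the other 3 of its group.

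The size of the 6 DAP count rested in part on single libraries. Without crwn1/2 6 DAP library 2, edgeR called 9 of the 40 lower and the median log2 difference was -0.41, with 36 of 40 still negative. The 9 were PDH-E1 BETA, BCCP2, HAD AT5G10160, FATA1, ACP1, ACP3, ACP5, FAD3 and FAE1. Without crwn1/2 6 DAP library 3 or without WT 6 DAP library 4, 17 were called. The share of all features called without a library is not given here or below. Such counts are therefore not set against a background, which may shrink as well. Of single calls at 6 DAP, those lost most often under the 31 alternatives were BCCP1 and FATB (18 each), KAR (10), and PKP-ALPHA, KAS1 and DGAT1 (9 each). PKP-BETA1 and ENR followed (7 each), then FATA2 (6), and the other 18 of the 27 were lost under 3 or fewer. Without WT 7 DAP library 1 or 2, 3 genes were called at 7 DAP.

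Some markers of seed tissues were also called between the genotypes at 6 DAP, those of the seed coat in both directions. Of all features, 6.37% were called higher and 6.26% lower in crwn1/2 at 6 DAP. Of 7 seed coat markers, BAN, TT2, STK and TT12 were called higher in crwn1/2 at 6 DAP, MUM4 and MUM2 lower, and TT10 was not called. Their summed level was 2125 to 2484 CPM in crwn1/2 libraries, against 1421 to 1698 CPM in WT libraries at 6 DAP. Of the 7 embryo markers, WOX2 was called higher, WUS was too low to test and the other 5 were not called, and the sum was 19.7 to 29.1 CPM in crwn1/2 libraries, against 8.78 to 20.7 CPM in WT libraries. Of the 7 endosperm markers, FWA, PHE1 and AGL62 were called higher, FIS2, MINI3 and ZOU were not called and IKU2 was too low to test, with sums of 125 to 202 CPM in crwn1/2 libraries, against 146 to 168 CPM in WT libraries. WUS and CUC2 stood at 0 in 1 library of the series each, and IKU2 and MINI3 in 3 each. Between the genotypes at 7 DAP, 3 of the 7 seed coat markers were called higher in crwn1/2 and 2 lower. They were BAN (log2 difference 1.50), TT2 (1.55) and STK (0.88), and MUM4 (-0.82) and MUM2 (-1.13). Embryo markers had 0 called at 7 DAP, and endosperm markers 2 higher and 1 lower. Over all features at 7 DAP, 10.9% were called higher and 13.5% lower. The part of these markers in the result was not tested.

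**Figure D2:**
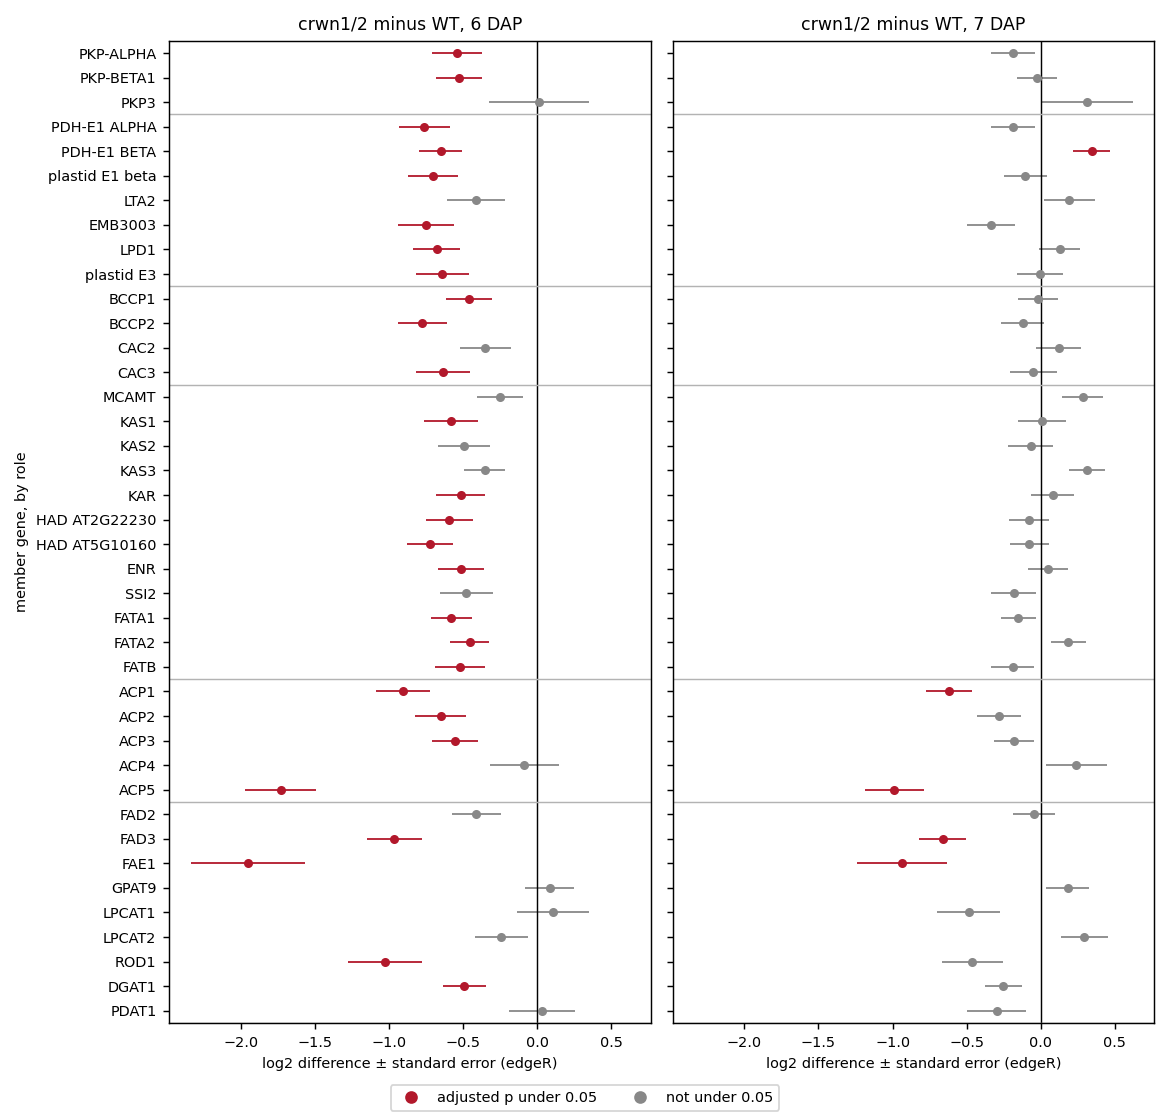
Points are log2 differences, crwn1/2 minus WT, at 6 DAP on the left and 7 DAP on the right, with their standard errors, for the 40 genes grouped by role; red marks an adjusted p under 0.05. At 6 DAP 27 genes are red and all of them lie left of 0, while at 7 DAP 5 are red, of which PDH-E1 BETA alone lies right of 0.

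Plastid pyruvate kinase catalyses the last step of glycolysis in the plastid. PKP-ALPHA and PKP-BETA1, subunits of the enzyme needed for seed oil, were both lower in crwn1/2 at 6 DAP, while PKP3 had a log2 difference of 0.01 and was not called. PKP-BETA1 had 396, 279 and 380.5 CPM in the crwn1/2 libraries at 6 DAP, against 505, 516, 491 and 516 CPM in WT libraries at 6 DAP. For PKP-BETA1 the 7 DAP values were 539, 540.3, 608, 536 and 485 CPM in crwn1/2 libraries, against 533, 552, 565 and 561 CPM in WT libraries. PKP-BETA1 reached 417, 656, 443 and 453 CPM in crwn1/2 libraries at 8 DAP. All 3 crwn1/2 libraries at 6 DAP lay below the 4 WT libraries, and the 7 DAP groups overlapped. The log2 difference of PKP-BETA1 was -0.53 ± 0.16 (SE) at 6 DAP (adjusted p = 0.0262 by edgeR) and -0.03 at 7 DAP (adjusted p = 0.902 by edgeR).

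PKP-ALPHA had 246, 162 and 238 CPM in the crwn1/2 libraries at 6 DAP, against 299, 339, 299.7 and 316 CPM in WT libraries at 6 DAP. For PKP-ALPHA the 7 DAP values were 308, 328, 399, 334 and 287 CPM in crwn1/2 libraries, against 349.8, 343, 426 and 389.9 CPM in WT libraries. PKP-ALPHA reached 308, 440.3, 289.5 and 303 CPM in crwn1/2 libraries at 8 DAP. The PKP-ALPHA values did not overlap at 6 DAP and did at 7 DAP. PKP-ALPHA differed by -0.54 ± 0.17 at 6 DAP (log2, adjusted p = 0.036 by edgeR) and by -0.19 at 7 DAP (adjusted p = 0.372 by edgeR). PKP3 had 20.7, 21.0 and 29.4 CPM in the crwn1/2 libraries at 6 DAP, against 23.1, 22.5, 21.3 and 27.3 CPM in WT libraries at 6 DAP. For PKP3 the 7 DAP values were 8.14, 18.8, 17.4, 14.9 and 21.0 CPM in crwn1/2 libraries, against 17.5, 17.97, 3.90 and 12.5 CPM in WT libraries. PKP3 reached 15.3, 13.8, 19.1 and 13.3 CPM in crwn1/2 libraries at 8 DAP. PKP3, the third plastid pyruvate kinase gene, was lowest in WT library 3 at 7 DAP, and none of its genotype or day comparisons passed the threshold.

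Plastid pyruvate dehydrogenase is built of E1 alpha and beta, E2 and E3 proteins. Of its 7 genes, 6 were lower in crwn1/2 at 6 DAP, where 6.26% of all features were called lower. Log2 differences of the 6 ran from -0.76 (PDH-E1 ALPHA, the E1 alpha subunit) to -0.64 (AT4G16155, an E3). LTA2, an E2, at -0.42, was not called. PDH-E1 BETA had 450.1, 351 and 450.2 CPM in the crwn1/2 libraries at 6 DAP, against 652, 596, 664 and 711 CPM in WT libraries at 6 DAP. For PDH-E1 BETA the 7 DAP values were 628, 676, 693, 645 and 544 CPM in crwn1/2 libraries, against 493, 509, 549.6 and 455 CPM in WT libraries. PDH-E1 BETA reached 462, 616, 479 and 491 CPM in crwn1/2 libraries at 8 DAP. The crwn1/2 libraries were below every WT library at 6 DAP, whereas at 7 DAP 4 of the 5 crwn1/2 libraries lay above all 4 WT libraries. PDH-E1 BETA, an E1 beta subunit, differed by -0.65 ± 0.14 at 6 DAP (adjusted p = 0.0038 by edgeR) and by 0.34 ± 0.13 at 7 DAP (adjusted p = 0.047 by edgeR). Its call at 7 DAP was lost under 18 of 31 alternatives, among them leaving out WT 6 DAP library 1, 2 or 4, WT 7 DAP library 1, 2 or 4, crwn1/2 7 DAP library 1, 2, 3 or 4, or crwn1/2 8 DAP library 4. The second plastid E1 beta gene, AT2G34590, differed by -0.70 at 6 DAP and -0.10 at 7 DAP, and reads of similar gene copies may be split between them.

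EMB3003 had 142, 98.0 and 163 CPM in the crwn1/2 libraries at 6 DAP, against 209, 238, 218 and 241 CPM in WT libraries at 6 DAP. For EMB3003 the 7 DAP values were 212, 213, 245, 227 and 163 CPM in crwn1/2 libraries, against 251, 281, 258 and 279 CPM in WT libraries. EMB3003 reached 135, 246, 159 and 148 CPM in crwn1/2 libraries at 8 DAP. EMB3003, an E2 gene, was lower in crwn1/2 at 6 DAP (log2 difference -0.75 ± 0.19, adjusted p = 0.0102 by edgeR), and lay under all 4 WT libraries of 7 DAP in every crwn1/2 library at 7 and 8 DAP. Its difference at 7 DAP was -0.33 (adjusted p = 0.138 by edgeR). LPD1 had 265, 175 and 257 CPM in the crwn1/2 libraries at 6 DAP, against 367, 344, 389 and 386 CPM in WT libraries at 6 DAP. For LPD1 the 7 DAP values were 314, 351, 394, 382 and 325 CPM in crwn1/2 libraries, against 286, 331, 360.4 and 314 CPM in WT libraries. LPD1 reached 304, 438, 349 and 313 CPM in crwn1/2 libraries at 8 DAP. LPD1, an E3, lay below every WT library at 6 DAP in crwn1/2 and overlapped WT at 7 DAP. Its log2 difference was -0.68 ± 0.16 at 6 DAP (adjusted p = 0.00628 by edgeR) and 0.13 at 7 DAP (adjusted p = 0.538 by edgeR).

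Acetyl-CoA carboxylase commits carbon to fatty acids. Both biotin carrier genes, BCCP1 and BCCP2, and CAC3, the alpha subunit of the carboxyltransferase, were lower in crwn1/2 at 6 DAP, and CAC2, the biotin carboxylase, at -0.35, was not called. BCCP2 had 282, 221 and 262 CPM in the crwn1/2 libraries at 6 DAP, against 393, 456, 426 and 470.3 CPM in WT libraries at 6 DAP. For BCCP2 the 7 DAP values were 433, 551, 635, 559 and 447 CPM in crwn1/2 libraries, against 608, 538, 641 and 500.0 CPM in WT libraries. BCCP2 reached 449, 672, 507 and 486 CPM in crwn1/2 libraries at 8 DAP. The crwn1/2 libraries at 6 DAP held 221 to 282 CPM and the lowest other library of the series 393 CPM. BCCP2 differed by -0.77 ± 0.17 at 6 DAP (adjusted p = 0.00292 by edgeR) and by -0.12 at 7 DAP (adjusted p = 0.569 by edgeR).

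BCCP1 had 222, 236 and 257 CPM in the crwn1/2 libraries at 6 DAP, against 333, 303, 331 and 346 CPM in WT libraries at 6 DAP. For BCCP1 the 7 DAP values were 328, 354, 363, 324 and 269.5 CPM in crwn1/2 libraries, against 303, 366, 372 and 287 CPM in WT libraries. BCCP1 reached 260.5, 373, 247 and 274 CPM in crwn1/2 libraries at 8 DAP. At 6 DAP the groups did not overlap for BCCP1, and they did at 7 DAP. The BCCP1 log2 difference at 6 DAP was -0.46 ± 0.15 (adjusted p = 0.0488 by edgeR), the closest to the threshold among the 27. It was lost under 18 of 31 alternatives, among them leaving out crwn1/2 6 DAP library 1, 2 or 3, crwn1/2 7 DAP library 1, 2, 3 or 4, crwn1/2 8 DAP library 1, 3 or 4, WT 6 DAP library 1, 2, 3 or 4 or WT 7 DAP library 2.

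Fatty acid synthase and the enzymes that release its product were represented by 12 genes. Of these, 8 were lower in crwn1/2 at 6 DAP, where 6.26% of all features were called lower. The 8 were KAS1, a condensing enzyme, KAR and ENR, the reductases, both HAD genes, which are dehydratases, and the thioesterase genes FATA1, FATA2 and FATB. MCAMT, which loads malonyl groups, KAS2 and KAS3, condensing enzymes, and SSI2, the stearoyl-ACP desaturase, were not called, with log2 differences of -0.25, -0.50, -0.36 and -0.48. None of the 12 was called at 7 DAP, where 24.4% of all features were. Log2 differences of the 12 at 7 DAP ran from -0.19 to 0.31.

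HAD AT5G10160 had 195, 153 and 207 CPM in the crwn1/2 libraries at 6 DAP, against 290.4, 308, 312 and 313 CPM in WT libraries at 6 DAP. For HAD AT5G10160 the 7 DAP values were 275, 295, 328, 297 and 272 CPM in crwn1/2 libraries, against 292, 314, 326 and 307 CPM in WT libraries. HAD AT5G10160 reached 219, 344, 235 and 223 CPM in crwn1/2 libraries at 8 DAP. The 3 crwn1/2 libraries at 6 DAP were below all other libraries of the series. HAD AT5G10160 differed by -0.72 ± 0.15 at 6 DAP (adjusted p = 0.00272 by edgeR), against -0.59 for HAD AT2G22230 (adjusted p = 0.0149 by edgeR), a similar gene.

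KAS3 had 151, 119 and 155 CPM in the crwn1/2 libraries at 6 DAP, against 195, 169, 191 and 171 CPM in WT libraries at 6 DAP. For KAS3 the 7 DAP values were 161, 209, 197, 186 and 201 CPM in crwn1/2 libraries, against 153, 139, 176 and 147 CPM in WT libraries. KAS3 reached 165, 209.5, 178 and 181 CPM in crwn1/2 libraries at 8 DAP. KAS3, which starts the chain, was lower in crwn1/2 than in every WT library at 6 DAP, and 4 of the 5 crwn1/2 libraries at 7 DAP exceeded all 4 WT libraries. Its log2 difference was -0.36 ± 0.14 at 6 DAP (adjusted p = 0.0939 by edgeR) and 0.31 ± 0.12 at 7 DAP (adjusted p = 0.0637 by edgeR), with neither called. FATA2 had 105, 90.4 and 101 CPM in the crwn1/2 libraries at 6 DAP, against 129.9, 139, 141 and 133 CPM in WT libraries at 6 DAP. For FATA2 the 7 DAP values were 119, 144, 149, 139 and 156 CPM in crwn1/2 libraries, against 134, 110.3, 129.97 and 122 CPM in WT libraries. FATA2 reached 147, 117, 151 and 121 CPM in crwn1/2 libraries at 8 DAP. FATA2 was below WT in all 3 crwn1/2 libraries at 6 DAP, and the 7 DAP groups overlapped. FATA2 differed by -0.46 ± 0.13 at 6 DAP (adjusted p = 0.0248 by edgeR) and 0.19 at 7 DAP (adjusted p = 0.255 by edgeR).

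Acyl carrier proteins hold the growing chain. At 6 DAP, 4 of the 5 genes were lower in crwn1/2, where 6.26% of all features were called lower. ACP4, the main leaf form, at -0.09, was not called. ACP5 had 45.5, 47.5 and 61.3 CPM in the crwn1/2 libraries at 6 DAP, against 136, 171, 178 and 198 CPM in WT libraries at 6 DAP. For ACP5 the 7 DAP values were 119, 157, 254, 156 and 157 CPM in crwn1/2 libraries, against 377, 362, 320.0 and 277 CPM in WT libraries. ACP5 reached 168, 333, 197 and 191 CPM in crwn1/2 libraries at 8 DAP. For ACP5 the highest crwn1/2 library at 6 DAP lay far under the lowest WT library, and at 7 DAP all 5 crwn1/2 libraries were below all 4 WT libraries. ACP5 differed by -1.73 ± 0.24 at 6 DAP (adjusted p = 2.99e-05 by edgeR) and by -0.99 ± 0.20 at 7 DAP (adjusted p = 0.00139 by edgeR).

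ACP1 had 643, 453 and 580.4 CPM in the crwn1/2 libraries at 6 DAP, against 977, 1117, 1021 and 1074 CPM in WT libraries at 6 DAP. For ACP1 the 7 DAP values were 872, 949, 1221, 1012 and 918 CPM in crwn1/2 libraries, against 1561, 1598, 1522 and 1434 CPM in WT libraries. ACP1 reached 825, 1503, 898 and 925 CPM in crwn1/2 libraries at 8 DAP. ACP1 showed no overlap between genotypes at either shared day. It differed by -0.91 ± 0.18 at 6 DAP (adjusted p = 0.00182 by edgeR) and by -0.62 ± 0.16 at 7 DAP (adjusted p = 0.00688 by edgeR). ACP2 and ACP3, which are near-identical and may share reads, differed by -0.65 and -0.56 at 6 DAP.

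Desaturation, elongation and assembly of triacylglycerol were covered by 9 genes. FAE1, the elongase of very long chain seed fatty acids, FAD3, which makes linolenic acid, ROD1, which passes diacylglycerol between lipid pools, and DGAT1, which adds the last acyl chain, were lower in crwn1/2 at 6 DAP. FAD2, the oleate desaturase, at -0.41, and the acyltransferase genes GPAT9, LPCAT1, LPCAT2 and PDAT1, at 0.08, 0.10, -0.24 and 0.03, were not called. FAE1 had 33.3, 6.69 and 10.7 CPM in the crwn1/2 libraries at 6 DAP, against 47.7, 60.2, 66.2 and 87.4 CPM in WT libraries at 6 DAP. For FAE1 the 7 DAP values were 68.6, 147, 191, 161 and 104 CPM in crwn1/2 libraries, against 276, 314, 261 and 177 CPM in WT libraries. FAE1 reached 245, 251, 214 and 227 CPM in crwn1/2 libraries at 8 DAP. The crwn1/2 libraries at 6 DAP were the lowest of the series, the genotypes overlapped at 7 DAP, and FAE1 in crwn1/2 at 8 DAP lay above every crwn1/2 library at 7 DAP. FAE1 differed by -1.95 ± 0.38 at 6 DAP (adjusted p = 0.00135 by edgeR) and by -0.94 ± 0.30 at 7 DAP (adjusted p = 0.0275 by edgeR). The FAE1 call at 7 DAP was lost under 6 of 31 alternatives (adjusted p up to 0.138 by edgeR), which were the replicate block, the adjustment for reads outside features, and leaving out crwn1/2 7 DAP library 1 or 5 or WT 7 DAP library 1 or 2.

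FAD3 had 88.5, 66.3 and 72.5 CPM in the crwn1/2 libraries at 6 DAP, against 138, 147, 156 and 149 CPM in WT libraries at 6 DAP. For FAD3 the 7 DAP values were 107, 126, 156, 127 and 121 CPM in crwn1/2 libraries, against 199, 221, 227 and 159 CPM in WT libraries. FAD3 reached 178, 258, 134 and 167 CPM in crwn1/2 libraries at 8 DAP. For FAD3 the genotypes did not overlap at 6 or 7 DAP, and its log2 differences were -0.96 ± 0.19 (adjusted p = 0.00117 by edgeR) and -0.66 ± 0.16 (adjusted p = 0.00479 by edgeR). PDAT1 had 24.2, 18.5 and 16.6 CPM in the crwn1/2 libraries at 6 DAP, against 17.96, 18.3, 23.2 and 18.02 CPM in WT libraries at 6 DAP. For PDAT1 the 7 DAP values were 15.2, 23.4, 16.3, 19.5 and 24.5 CPM in crwn1/2 libraries, against 25.4, 31.1, 20.3 and 20.5 CPM in WT libraries. PDAT1 reached 20.6, 19.9, 14.97 and 14.98 CPM in crwn1/2 libraries at 8 DAP. PDAT1, a second route to triacylglycerol, overlapped between the genotypes on both days. ROD1 differed by -1.03 ± 0.25 at 6 DAP (adjusted p = 0.00747 by edgeR) and -0.46 at 7 DAP (adjusted p = 0.106 by edgeR).

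**Figure D3:**
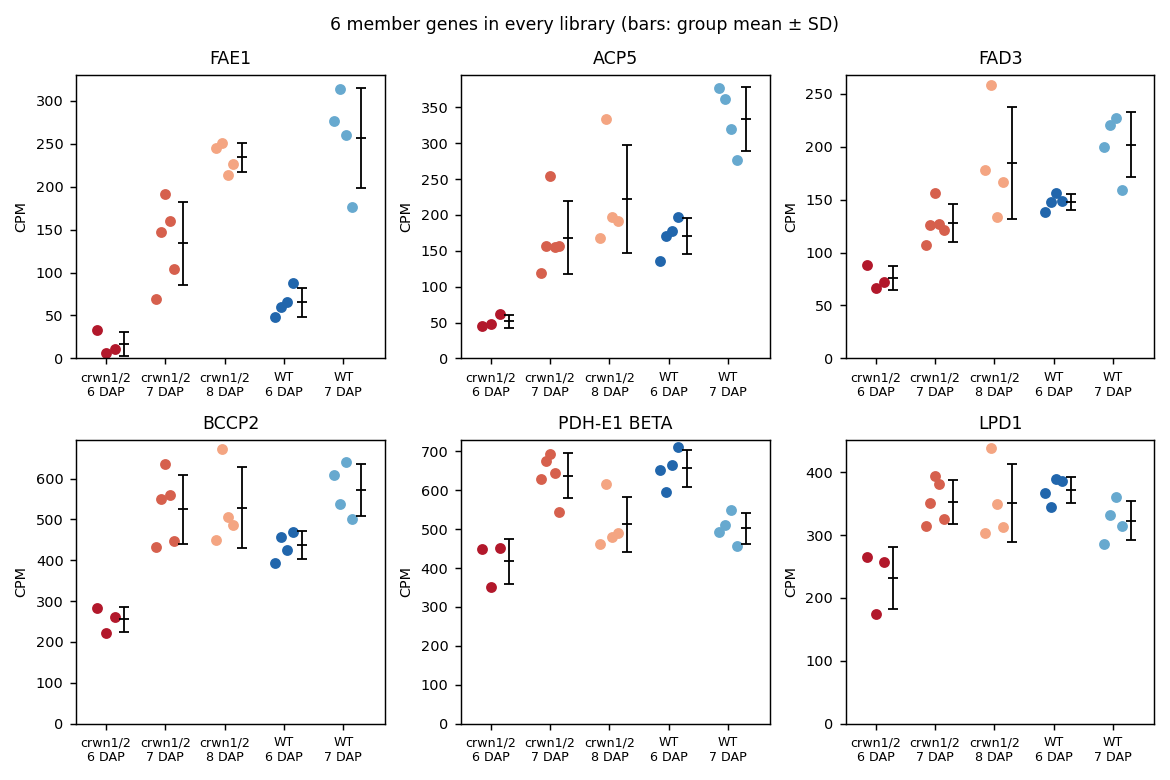
CPM of 6 genes in each library, by group; points are libraries and bars the group mean ± SD. For all 6 genes the crwn1/2 libraries lie wholly below WT at 6 DAP. At 7 DAP they do so for ACP5 and FAD3, while for FAE1, BCCP2, PDH-E1 BETA and LPD1 the genotypes overlap.

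In WT, 5 of the 40 genes were higher at 7 DAP than at 6 DAP and 1 was lower, where 20.0% of all features were called, 9.58% higher and 10.5% lower. The 5 were FAE1 (1.98), ROD1 (0.99), ACP5 (0.97), ACP1 (0.55) and DGAT1 (0.43), and PDH-E1 BETA was lower (-0.39, adjusted p = 0.0402 by edgeR). The call of PDH-E1 BETA was lost under 15 of 31 alternatives, among them leaving out WT 6 DAP library 1, 3 or 4, WT 7 DAP library 1, 2 or 4, or crwn1/2 7 DAP library 2 or 4. ACP1 and DGAT1 each lost the call under 4, ACP1 among them without WT 6 DAP library 1 or 3 or WT 7 DAP library 2 and DGAT1 without WT 6 DAP library 1 or WT 7 DAP library 3. Without WT 6 DAP library 1 the WT count was 3. In crwn1/2, 26 of the 40 were higher at 7 than at 6 DAP and 0 lower, where 11.2% of all features were called, 6.57% higher and 4.64% lower. The median log2 change was 0.58 in crwn1/2, against -0.01 over all features, and 0.07 in WT, against 0.02 over all features. Without crwn1/2 6 DAP library 2, 9 genes were called higher in crwn1/2 at 7 DAP and the median was 0.45. Seed coat markers were called here too, with 4 of 7 lower and 0 higher at 7 DAP. Their sums were 1036 to 1558 CPM in crwn1/2 at 7 DAP, against 2125 to 2484 CPM in crwn1/2 at 6 DAP. Of the endosperm markers, 2 were lower and 0 higher, with sums of 93.0 to 167 CPM at 7 DAP, against 125 to 202 CPM at 6 DAP. Of the embryo markers, 0 were called. The part of these markers was not tested. The 2 day comparisons share libraries with the genotype comparisons and with the interaction below.

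The test of whether the day change differed between genotypes called 4 of the 40, where 3.49% of all features were called, 1.85% higher and 1.64% lower. PDH-E1 BETA had an interaction log2 of 1.00 ± 0.19 (adjusted p = 0.00602 by edgeR), LPD1 0.81 ± 0.21 (adjusted p = 0.0331 by edgeR), KAS3 0.67 ± 0.18 (adjusted p = 0.0449 by edgeR) and FATA2 0.64 ± 0.18 (adjusted p = 0.0437 by edgeR). Each stood relatively higher in crwn1/2 at 7 DAP than at 6 DAP, compared with WT. The interaction was positive for 38 of the 40, with a median of 0.51, against 0.02 over all features. The count is fragile: it was 1 without WT 6 DAP library 1, 3 or 4, without WT 7 DAP library 2, without crwn1/2 6 DAP library 2, or without crwn1/2 7 DAP library 2, 3 or 4. It was 2 without WT 6 DAP library 2, WT 7 DAP library 1 or 4, crwn1/2 7 DAP library 5 or crwn1/2 8 DAP library 4. PDH-E1 BETA was called in 30 of 31 alternatives, the exception being the fit that adjusts for each library's reads outside annotated features.

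Set against WT at 7 DAP, crwn1/2 at 8 DAP had EMB3003 (-0.64 ± 0.17, adjusted p = 0.0169 by edgeR) and ACP1 (-0.56 ± 0.17, adjusted p = 0.0284 by edgeR) lower, so 2 of the 40 were called, where 13.9% of all features were called, 7.04% lower and 6.90% higher. Genotype and day differ together here. The median was -0.14, against -0.02 over all features. Without crwn1/2 8 DAP library 2, 8 genes were called lower, namely PDH-E1 ALPHA, EMB3003, both HAD genes, ACP1, ACP2, ACP4 and ACP5, and the median was -0.31. Without any of crwn1/2 8 DAP libraries 1, 3 or 4 the count was 0, and without WT 7 DAP library 2 it was 1. Within crwn1/2, edgeR called 0 of the 40 between 8 and 7 DAP. Of all features, 3.95% were called, 2.22% higher and 1.73% lower. DESeq2 and limma-voom each called 2 of the 40.

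Compared with WT a day earlier, crwn1/2 at 7 DAP held FAE1 alone higher, at 1.04 ± 0.31 (adjusted p = 0.0456 by edgeR), and none lower, where 7.04% of all features were called, 3.99% higher and 3.05% lower. This comparison also mixes genotype and day. The median of the 40 was 0.02, against -0.0045 over all features, and turned to -0.0037 under upper-quartile scaling. The FAE1 call was lost under 15 of 31 alternatives, among them leaving out WT 6 DAP library 1, 2 or 3, WT 7 DAP library 2 or 3, crwn1/2 7 DAP library 2, 3 or 4, or crwn1/2 8 DAP library 2, 3 or 4.

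Among 49 other genes of the pathway, covering regulators, carbon import, carboxylase inhibitors and lipoylation, other stearoyl-ACP desaturases, fatty acid export, the elongase complex, glycerolipid assembly and mitochondrial acyl carrier proteins, 14 were lower and 2 higher in crwn1/2 at 6 DAP, or 32.7% called, where 12.6% of all features were called, 6.26% lower and 6.37% higher. Their median log2 difference was -0.25, against -0.01 over all features. AAD2, a stearoyl-ACP desaturase relative, had 13.8, 6.18 and 10.2 CPM in crwn1/2 libraries at 6 DAP, against 35.7, 27.6, 59.0 and 42.8 CPM in WT libraries, a difference of -2.03 ± 0.29 (adjusted p = 4.3e-05 by edgeR). L1L, the seed regulator, had 81.0, 39.7 and 83.6 CPM in crwn1/2 libraries, against 161, 135, 228 and 238 CPM in WT libraries (-1.48 ± 0.28, adjusted p = 0.00079 by edgeR). WRI4, a WRI1 relative, was higher in crwn1/2 (2.95), as was AAPT2, an aminoalcohol phosphotransferase (1.18). FUS3 and BZIP67 were lower, with log2 differences of -1.07 and -0.95, adjusted p = 0.00421 and 0.00704 by edgeR, named here after their values were seen.

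WRI1 had 312, 245 and 229.8 CPM in crwn1/2 libraries at 6 DAP, against 448, 409.6, 531 and 376 CPM in WT libraries, with no overlap. For WRI1 the 7 DAP values were 372, 369, 387, 294 and 343 CPM in crwn1/2 libraries, against 309, 374, 364 and 379 CPM in WT libraries, with overlap. The WRI1 difference was -0.75 ± 0.15 at 6 DAP (adjusted p = 0.0015 by edgeR) and -0.01 at 7 DAP (adjusted p = 0.954 by edgeR), and the interaction was 0.74 ± 0.20 (adjusted p = 0.0376 by edgeR). The WRI1 interaction call was lost under 12 of 31 alternatives, among them leaving out crwn1/2 6 DAP library 2 or 3, crwn1/2 7 DAP library 2 or 3, WT 6 DAP library 1 or 3 or WT 7 DAP library 1 or 2. LEC1 was higher in crwn1/2 at 7 DAP, at 169, 155, 133, 122 and 117 CPM, against 35.8, 52.6, 51.5 and 63.0 CPM in WT libraries (1.46 ± 0.17, adjusted p = 3.38e-06 by edgeR).

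**Figure D4:**
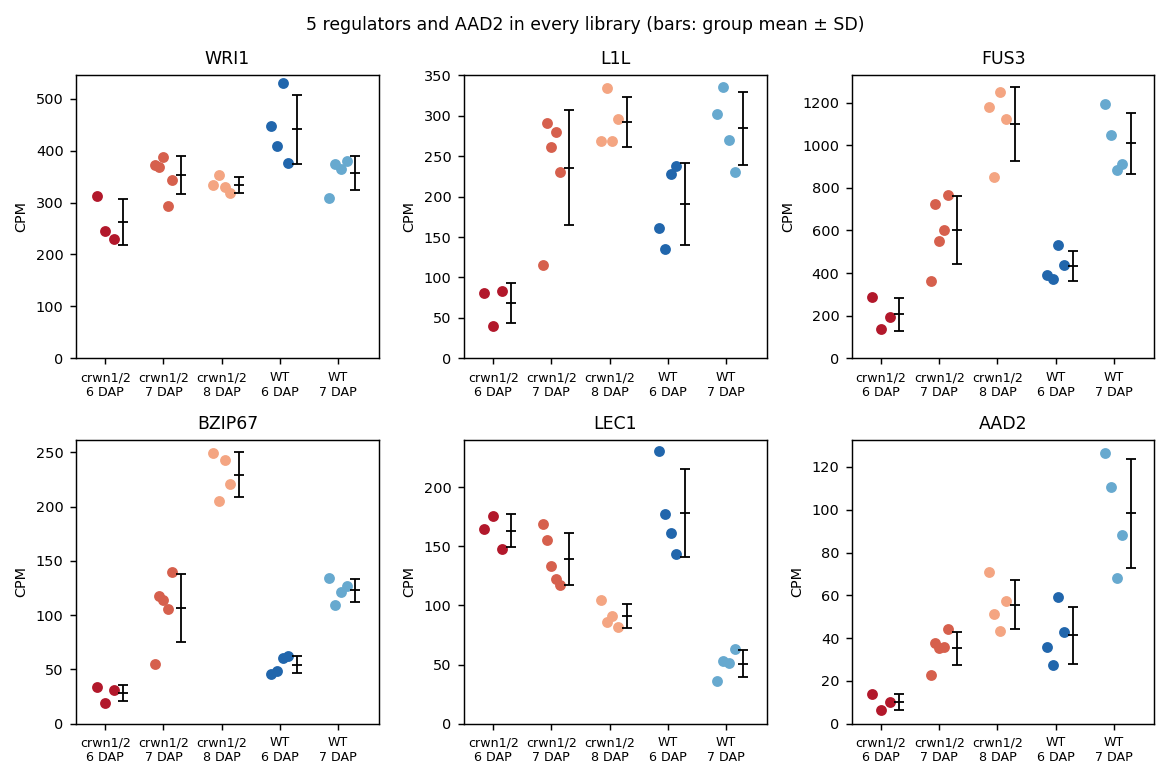
CPM of 5 regulators and of the desaturase gene AAD2 in each library, by group; points are libraries and bars the group mean ± SD. WRI1, L1L, FUS3, BZIP67 and AAD2 have their lowest group mean in crwn1/2 at 6 DAP, and LEC1 in crwn1/2 at 7 DAP lies above WT at 7 DAP.

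At 7 DAP, 5 of these 49 genes were higher and 7 lower in crwn1/2, which is 24.5% of them against 24.4% of all features, so the count is that of the background. LIP2P, a lipoylation gene, rose by 1.46 and AAPT1 by 0.61, while AAD2 fell by 1.48 and WRI3, a WRI1 relative, by 1.45 on the log2 scale, all called by edgeR. Against WT at 7 DAP, crwn1/2 at 8 DAP had 4 higher and 2 lower (12.2% of the 49, near the 13.9% of all features), with LIP2P at 1.42, BZIP67 at 0.90 and LEC1 at 0.84 higher, and AAD2 at -0.82 and MTACP1, a mitochondrial acyl carrier protein, at -0.64 lower. In WT between days, 10 were higher at 7 DAP and 7 lower, where 20.0% of all features were called (9.58% higher and 10.5% lower). In crwn1/2 15 were higher at 7 than at 6 DAP and 1 lower, where 11.2% of all features were called (6.57% higher and 4.64% lower). The genotype-by-day interaction was called for 6, where 3.49% of all features were called, higher for LEC1 (1.59), PPT1, a plastid phosphoenolpyruvate importer (1.01), WRI1 and BADC3 (0.72) and lower for AAPT2 (-1.62) and DGAT3 (-1.12). The BADC3 call was lost under 14 of 31 alternatives, among them leaving out crwn1/2 6 DAP library 2 or 3, crwn1/2 7 DAP library 2, 3 or 4, WT 6 DAP library 1, 3 or 4 or WT 7 DAP library 1, 2 or 4. DGAT3 lost its call under 4, among them leaving out crwn1/2 6 DAP library 2 or WT 6 DAP library 1 or 4. For AAD2 at 8 DAP the call was lost under 7, among them leaving out crwn1/2 8 DAP library 2, 3 or 4 or WT 7 DAP library 1 or 2.

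Of 10 genes of oil breakdown, 3 were higher and 1 lower in crwn1/2 at 6 DAP, where 12.6% of all features were called, with a median of 0.29 against -0.01 over all features. LACS7, a peroxisomal acyl-CoA synthetase, had 106, 69.1 and 50.1 CPM in crwn1/2 libraries at 6 DAP, against 322, 353, 392 and 329.9 CPM in WT libraries (-2.22 ± 0.21, adjusted p = 1.34e-07 by edgeR), and the lipase gene SDP1 was higher (1.00). LACS7 was also lower in crwn1/2 at 8 DAP than in WT at 7 DAP (-1.25). At 7 DAP 4 of the 10 were lower and 0 higher by edgeR, where 24.4% of all features were called, 13.5% lower, with SDP1 at -1.86 and LACS7 at -1.36. The interaction of SDP1 was -2.86 ± 0.33 (adjusted p = 5.91e-05 by edgeR).

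Between days in WT, ICL and MLS, enzymes of the glyoxylate cycle (4.09 and 3.42), and SDP1 (2.59) were higher at 7 than at 6 DAP, and LEC1 (-1.81), MYB115, a seed regulator (-1.73), and GPT2, a glucose 6-phosphate importer (-1.59), were lower. In crwn1/2, ICL (3.23), the desaturase gene AAD6 (2.24) and BZIP67 (1.91) were higher at 7 than at 6 DAP, and WRI4 (-2.21) and ACX2, an acyl-CoA oxidase (-0.76), were lower. ACX2 lost its call under 18 of 31 alternatives, among them leaving out crwn1/2 6 DAP library 1 or 3, crwn1/2 7 DAP library 1, 2, 3 or 5, crwn1/2 8 DAP library 1, 2, 3 or 4, WT 6 DAP library 2 or WT 7 DAP library 2, 3 or 4, and AAD6 without crwn1/2 6 DAP library 2. Between 8 and 7 DAP in crwn1/2, SDP1 (1.35), BZIP67 (1.11) and DGAT3 (1.01) were higher, and MYB115 (-1.25) and LEC1 (-0.62) lower. The MYB115 call there (adjusted p = 0.0435 by edgeR) was lost under 14 of 31 alternatives, among them leaving out crwn1/2 7 DAP library 1, 2, 4 or 5, crwn1/2 8 DAP library 1, 2 or 3 or WT 6 DAP library 1, 2, 3 or 4. The LEC1 call was lost under 6, among them leaving out crwn1/2 7 DAP library 1 or 2 or crwn1/2 8 DAP library 2, 3 or 4. Set against WT a day earlier, the crwn1/2 libraries of 7 DAP had ICL (3.39), MLS (2.85) and AAD6 (1.70) higher, and MYB115 (-1.34), GPT2 (-1.17) and LACS7 (-0.85) lower. Of these, AAD6 lost its call under 10 of 31 alternatives, among them leaving out crwn1/2 7 DAP library 3, 4 or 5 or WT 6 DAP library 1, 2, 3 or 4, and GPT2 under 4, among them leaving out crwn1/2 7 DAP library 4 or 5 or WT 6 DAP library 3. These values are log2 differences called by edgeR.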

How the data were processed

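The 20 mRNA tables held deposited whole-number read counts per gene and transposable element, made by the authors. Per the submitters' processing notes the tools were STAR 2.7.1a, HTSeq and Trim Galore 0.6.7 with the TAIR10 genome, among tools for other data; which step used which, the annotation version and the strand setting are not given in the sources used here. The deposited peak lists' counts of H3K27me3 reads were not used in a result. The test was edgeR's (version 4.0.16, R 4.3.3; TMM, filterByExpr keeping features by a minimum of 10 counts and 15 in total, glmQLFit and glmQLFTest, 1 model for 5 groups and 20 libraries, Benjamini-Hochberg over 24696 features), and the edgeR fit was tested on simulated data. CPM used TMM-scaled totals. Summary lines naming no feature were left out: they held 4.05% to 5.92% of a library's reads as outside features and 1.19% to 1.52% as ambiguous. The genes printed in full were, per role, the member with the smallest adjusted p in 4 comparisons, and every member called in the interaction; other pathway genes were named up to 3 per direction. Members and lists were chosen with earlier results of these data known. Gene names are those of the gene lists and are not always the RefSeq symbol, such as FAE1 for KCS18 and DGAT1 for TAG1. All 122 listed genes had a RefSeq (TAIR10.1) entry by locus. Alternatives were other scalings, filters, tools, library sets and a replicate block. Promoter motifs and H3K27me3 at these genes were not analysed here.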

Additional observations from a re-analysis of the deposited data

Results flagged for a closer look

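In 160 sets of values, 1 per gene and group of 4 or 5 libraries, 18 had 1 library far from the others, where chance gives about 5% of sets. The crwn1/2 group at 6 DAP, with 3 libraries, was not checked in this way. Library 2 of crwn1/2 at 8 DAP held 10 of the 18, each above the rest of its group: PKP-ALPHA at 440.3 CPM, PKP-BETA1 at 656 CPM, LTA2 at 307 CPM, AT4G16155 at 211 CPM, CAC2 at 465 CPM, KAS1 at 668 CPM, KAR at 531 CPM, HAD AT5G10160 at 344 CPM, ACP1 at 1503 CPM and ACP2 at 1444 CPM. Library 3 of crwn1/2 at 7 DAP held 4, all above the rest, with AT4G16155 at 207 CPM, CAC3 at 296 CPM, HAD AT2G22230 at 173 CPM and ACP5 at 254 CPM. In WT, CAC2 was low in library 1 at 7 DAP (273 CPM), FATA1 was high in library 1 at 6 DAP (152 CPM) and low in library 4 at 7 DAP (117 CPM), and PDAT1 was high in library 3 at 6 DAP (23.2 CPM). Genes in a library share its RNA, so these are not independent.

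The genotype difference itself differed between 7 and 6 DAP by edgeR for PDH-E1 BETA (interaction log2 1.00), LPD1 (0.81), KAS3 (0.67) and FATA2 (0.64), with the libraries those calls rest on given in the results.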

How the results depend on the processing

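No called gene reversed direction under the alternatives run. Counts of called genes that moved by over 1.5 times were as follows. With no filter on low counts they were 16 at 6 DAP, 9 at 7 DAP, 0 for 8 DAP against WT at 7 DAP, 2 for crwn1/2 between 8 and 7 DAP and 9 for the interaction. With DESeq2 they were 4 for 8 DAP against WT at 7 DAP, 0 for 7 DAP against WT at 6 DAP and 2 between 8 and 7 DAP; in simulated data DESeq2's calls exceeded its nominal false discovery rate, so its counts are liberal. Limma-voom gave 4 and 2 for 8 DAP against WT at 7 DAP and for 8 against 7 DAP, and a count minimum of 50 gave 4 and 1, with 2 for the interaction. DESeq2's size factors in edgeR gave 1 between 8 and 7 DAP and 2 for the interaction, upper-quartile scaling 0 for 7 DAP against WT at 6 DAP and 2 for the interaction, no scaling 1 between 8 and 7 DAP and genes only 1 between 8 and 7 DAP. Only the groups of the contrast gave 1 for 8 DAP against WT at 7 DAP and 1 between 8 and 7 DAP. Adjusting for reads outside annotated features gave 1 at 7 DAP, 0 for 7 DAP against WT at 6 DAP and 0 for the interaction. The cause of these moves was not tested. The share of all features called under each alternative, here and below, is not given. These counts are therefore not set against a background, which may move as well.

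Replicate numbers are shared across groups, but same-numbered libraries did not deviate together: correlations over 36 pairs ran from -0.197 to 0.14 with a median of -0.009, and 2 were over 0.1. The replicate block gave 20 at 6 DAP, 3 at 7 DAP, 0 for 7 DAP against WT at 6 DAP and 1 for the interaction.

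Leaving out each library gave counts of 9 to 27 at 6 DAP, 3 to 7 at 7 DAP, 0 to 8 for 8 DAP against WT at 7 DAP, 0 to 1 for 7 DAP against WT at 6 DAP, 3 to 8 for WT between days, 9 to 30 for crwn1/2 between 7 and 6 DAP, 0 to 3 between 8 and 7 DAP and 1 to 6 for the interaction. DESeq2's size factors changed a library's CPM to 0.981 to 1.03 times the TMM value. The promoter motif alternative was not run.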
